A study of Homo sapiens with 4 samples.

Results

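The genes described here encode the subunits of RNA polymerases I, II and III, measured in a human colon carcinoma line grown as spheroids or as a monolayer. Members were the probe sets that carry a single gene symbol beginning with POLR1, POLR2 or POLR3, together with CRCP, the older name still in use for a polymerase III subunit. The older names CD3EAP, TWISTNB and ZNRD1 appear in the current annotation as POLR1G, POLR1F and POLR1H. The rule found 77 probe sets for 33 genes, of 19775 genes and 41091 probe sets with a single symbol in all. Of the 33 genes, 30 encode subunits, and the other 3 are copies or an antisense pseudogene. POLR2M was not analysed here, since no probe set carried its symbol alone. All 33 genes passed the filter on dim probe sets, as did 67 of the 77 probe sets.

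A total of 4 arrays were hybridised with labelled material from total RNA of HCT116, an established cell line, in the versions that the labels call HCT116 wt and HCT116 wt/GFP. Both were cultured as flat monolayers and as spheroids, rounded aggregates of many cells, with 1 array for every combination. The 2 monolayer arrays and the 2 spheroid arrays are thus paired by cell line, and the labels do not say how GFP was introduced or how long either culture was kept. The labels do not give the number of cultures behind an array. The spread behind the p-values is thus the disagreement between the lines, taken mostly from other genes of like brightness, and it may be technical. On every array the epithelial markers EPCAM, KRT8, KRT18 and KRT19 were bright, with signals from 16249 to 32967, and that of CDH1 lay between 889 and 916 for monolayers and between 4493 and 4866 for spheroids, whereas the best probe sets of the intestinal markers CDX1, CDX2, VIL1, CDH17 and LGR5 stayed at or below 90.7. The summed signal of 5 fibroblast markers was 437 to 450.0 in monolayers and 2410 to 4040 in spheroids, carried by COL1A1, and 3 of the 5 passed the filter. That of 4 leukocyte markers was 62.0 to 123 and 368 to 401, carried by LYZ, and that of 4 endothelial markers was 125 to 153 and 224 to 293, with 2 and 1 of the 4 passed. The defining leukocyte marker PTPRC and the fibroblast marker PDGFRB did not pass the filter. The part of these markers in the results was not tested.

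Values are MAS5 signals as deposited, on a linear scale. All arrays share a trimmed mean of 500.1, but the median signal was 48.0 and 48.8 on the monolayer arrays and 67.3 and 68.4 on the spheroid arrays. The ratio of the 3′ to the 5′ probe sets of ACTB, a sign of RNA quality, was 1.30 to 1.32 for monolayers against 1.73 to 1.76 for spheroids. That of GAPDH was 0.897 and 0.882 for the wt and wt/GFP monolayers and 0.868 and 0.951 for their spheroids, so its culture groups overlapped. The part of RNA quality in the results was not tested. Changes are given as log2 of the signal plus 14, spheroids minus monolayer, with the moderated standard error (SE) from limma. A gene was called at a Benjamini-Hochberg adjusted p under 0.05 over 14349 genes. By this rule 18.5% of all genes tested were lower in spheroids and 30.6% were higher, and the median change of all genes was 0.23. That split depends on how the arrays are scaled. The lower and higher shares were 21.0% and 23.6% after quantile normalization, 32.3% and 16.4% with arrays centred on their medians, and 28.1% and 7.48% with arrays scaled to the spiked hybridisation controls. The median change of all genes moved to 0.02, -0.17 and -0.37 under these scalings.

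Transcription in the nucleus is divided among these enzymes. Polymerase I makes the large ribosomal RNA precursor, polymerase II makes messenger RNA and many small nuclear RNAs, and polymerase III makes transfer RNA, 5S ribosomal RNA and other short RNAs. The enzymes are built on a like plan, with a pair of large catalytic subunits, a small assembly platform, a stalk that binds the emerging RNA, and a zinc ribbon subunit that helps cleave the transcript. Some small subunits are shared by all of them, and POLR1C and POLR1D are shared by polymerases I and III. Cells that grow fast need much ribosomal and transfer RNA, and the output of polymerases I and III is known to follow growth signals.

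In spheroids, 20 of the 33 genes fell and 1 rose, against a background of 18.5% lower, 30.6% higher and 49.1% called either way among all genes tested. At least 2-fold falls were seen in 8 of the 33 genes and at least 2-fold rises in 0, against 5.04% and 14.8% of all genes tested. Without a trend in the moderation 11 genes were called lower and 0 higher, and POLR1A, POLR1B, POLR1C, POLR1F, POLR1H, POLR2C, POLR2J, POLR2K and POLR3F lost their calls. The shares of all genes given above are from the fit with the trend, so they are not a background for these counts. All 6 genes found only in polymerase I fell, as did 4 of 7 found only in polymerase II and 5 of 10 found only in polymerase III. Among subunits shared by all of the enzymes, 4 of 5 fell, and of the 2 shared by polymerases I and III, POLR1C fell and POLR1D was not called. The gene that rose was POLR3GL, which encodes an alternative form of a polymerase III subunit. The 20 lower genes were called lower under each of the 3 other scalings too, which held for 17.1% of all genes. The call of POLR3GL was kept under quantile normalization and lost under median centring and hybridisation control scaling, where its change was -0.01 and -0.21. No gene of the 33 was thus called higher under the deposited, quantile and median scalings, against 16.1% of all genes, or under all 4 scalings, against 7.47%. In bulk RNA, fewer cells with a transcript and less of it per cell cannot be told apart.

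The median log2 change was -0.83 for the 6 genes of polymerase I, -0.46 for the 7 of polymerase II, -0.45 for the 10 of polymerase III and -0.86 for the 5 shared by all 3. Over all 33 genes it was -0.49, or -0.72 relative to the median of all genes tested, and the changes ran from -1.68 to 0.69. A change below the median of all genes was seen in both lines for 26 of the 33 genes, which held for 39.5% of all genes tested. Signals on both spheroid arrays lay below those on both monolayer arrays for 24 of the 33 genes and above them for 4, against 26.5% and 47.1% of all genes tested. In wt the medians were -0.60 for polymerase I, -0.43 for polymerase II and -0.32 for polymerase III. In wt/GFP they were -1.11, -0.45 and -0.47. The polymerase I genes thus had the lowest median of the 3 enzymes in each line, and their median differed more between the lines than those of the others. Without probe sets shared between transcripts that order was lost, with medians relative to all genes of -0.93 for polymerase I and -0.94 for polymerase II. No test was made of the difference between the enzymes.

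**Figure D1:**
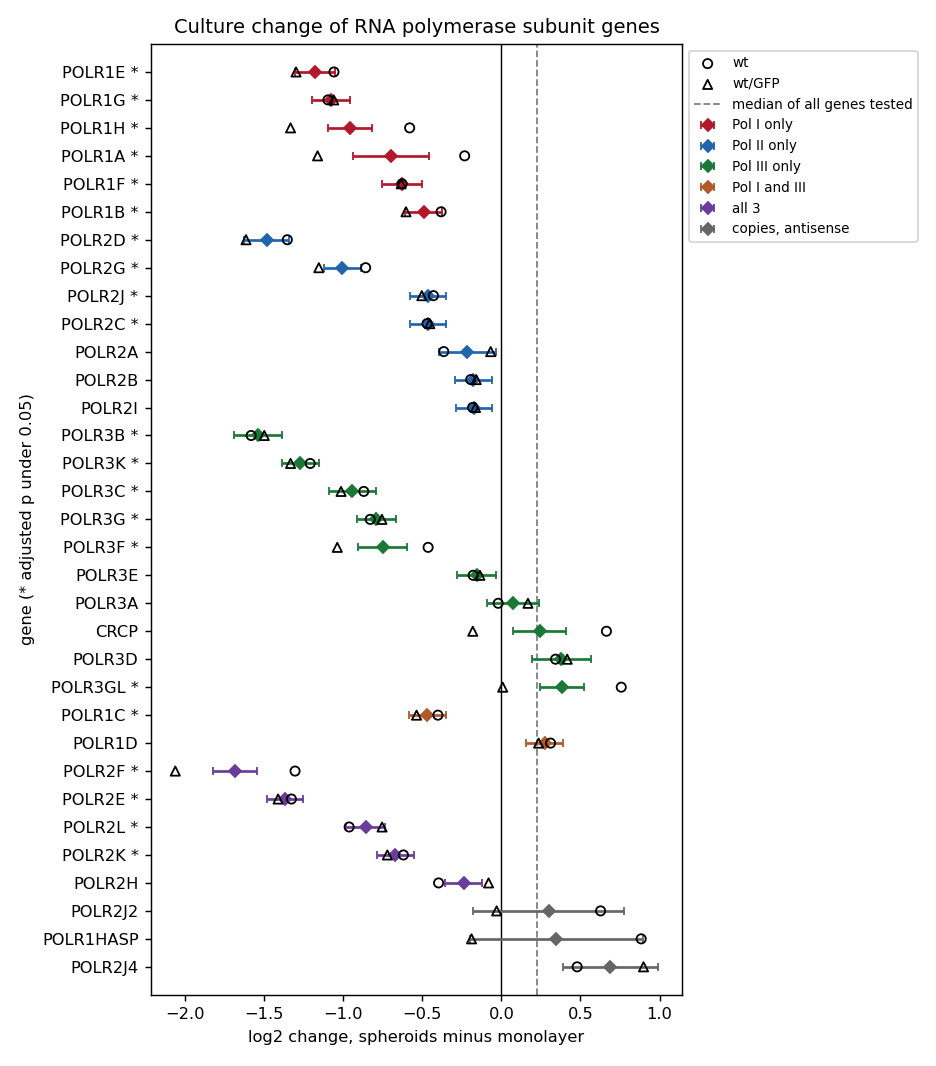
Log2 change of every gene, spheroids minus monolayer, grouped by the enzyme that holds the subunit. Diamonds and bars are the limma estimate and its SE, open circles the wt and open triangles the wt/GFP difference, an asterisk marks an adjusted p under 0.05, and the dashed line is the median of all genes tested, 0.23. All 6 polymerase I genes lie left of zero, and polymerase III genes spread from -1.54 to 0.38.

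Among the genes found only in polymerase I, POLR1E and POLR1G, which form a TFIIF-like pair that helps initiation and elongation, changed the most. POLR1E had signals of 2475 and 2641 in the wt and wt/GFP monolayers and 1182 and 1066 in their spheroids. Its log2 signal fell by 1.18 ± 0.13 SE (n = 2 arrays per condition), or 2.26-fold, with an adjusted p from limma of 1.09e-08. POLR1G had 2813 and 2731 in monolayers and 1309 and 1303 in spheroids, and fell by 1.08 ± 0.12 (adjusted p = 2.79e-08). Partners in the same dimer, they had changes that differed by 0.04 in wt and by -0.24 in wt/GFP. The monolayer and spheroid signals of both genes lay far apart, with the lines close together. POLR1H, the zinc ribbon subunit, had 3105 and 3571 in monolayers and 2073 and 1409.55 in spheroids, and fell by 0.96 ± 0.14 (adjusted p = 1.71e-06). Its fall was smaller in wt, where the difference was -0.58, than in wt/GFP, where it was -1.33. A second probe set of POLR1H fell by 0.99, while a pair of dim ones with signals from 28.3 to 61.4 were not called, at 0.48 and 0.33.

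POLR1F, the stalk subunit that contacts the initiation factor RRN3, had signals of 1982 and 1930.4 in monolayers and 1278 and 1239.6 in spheroids, and fell by 0.63 ± 0.13 (adjusted p = 0.000135). Its lines matched within 0.01, at -0.63 in each. The catalytic subunits changed less evenly. POLR1B, the second largest subunit, went from 3224 and 3222 to 2472 and 2117, and fell by 0.49 ± 0.12 (adjusted p = 0.00105). A further probe set of POLR1B fell by 0.76 and 2 dimmer ones were not called, at -0.14 and 0.12. POLR1A, the largest subunit, had 352 and 385 in monolayers and 297 and 164 in spheroids, and fell by 0.70 ± 0.24 (adjusted p = 0.0173). Its other probe sets were at -0.52 and -0.33 and not called. The lines differed more for POLR1A than for any other called gene of this enzyme, with differences of -0.23 in wt and -1.16 in wt/GFP. Without the wt/GFP spheroid array the change of POLR1A was -0.30, with an adjusted p of 0.286, without the wt monolayer it was -0.76 (0.0523) and without the wt/GFP monolayer -0.63 (0.107). When the probe sets of a gene were averaged, POLR1A, POLR1B and POLR1H lost their calls, and 3 of the 6 genes were called. Without probe sets shared between transcripts POLR1B, at -0.14 (adjusted p = 0.577), and POLR1H lost their calls, and 4 of the 6 genes were called lower.

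**Figure D2:**
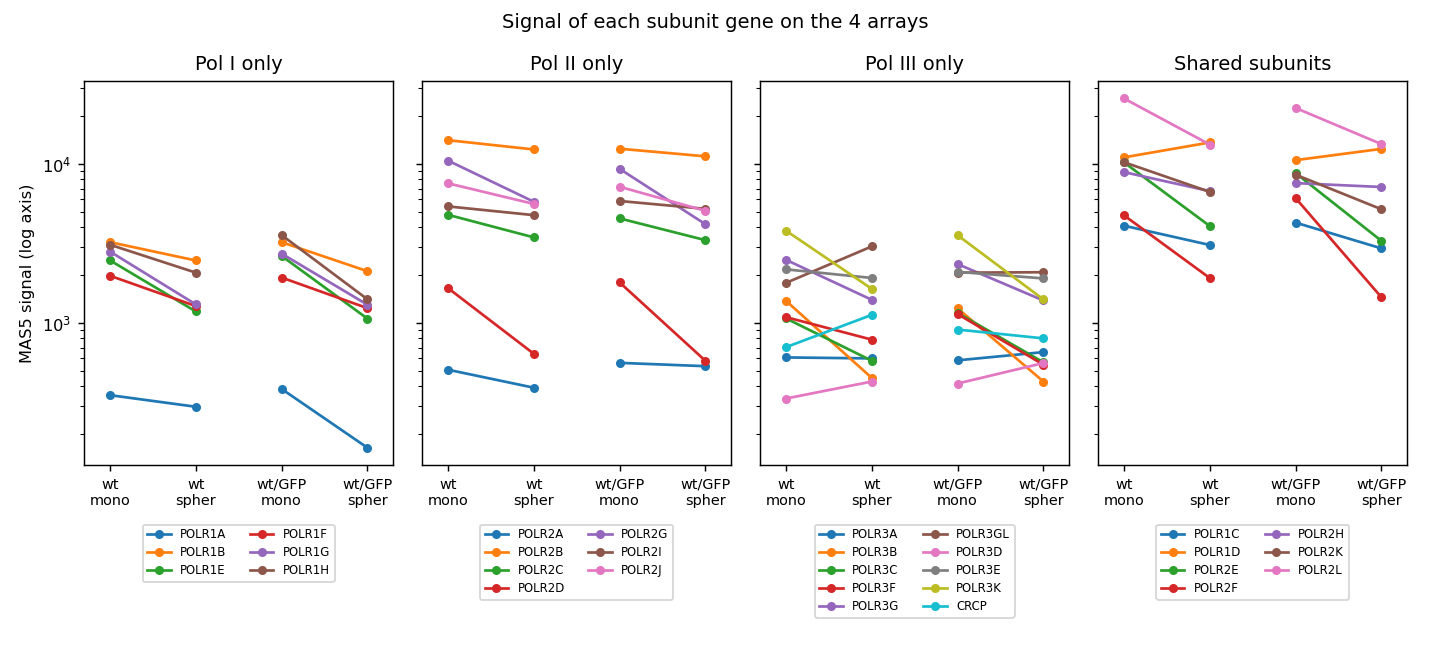
Deposited MAS5 signal of each subunit gene on the 4 arrays, on a log axis, in 4 panels by enzyme, with a line joining the monolayer and spheroid arrays of one cell line. Heights of different genes are not comparable, since probe sets differ in brightness, but slopes are. Those of polymerase I all point down. POLR3D and POLR1D point up in both lines, and POLR3GL points up in wt and is nearly flat in wt/GFP. CRCP points up in wt and POLR3A in wt/GFP.

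In polymerase II, POLR2D and POLR2G form the stalk, a detachable module that binds RNA. POLR2D had signals of 1657 and 1799 in monolayers and 640.2 and 578 in spheroids, and fell by 1.48 ± 0.14, or 2.80-fold (adjusted p = 1.20e-09). POLR2G went from 10499 and 9317 to 5787 and 4180.1, and fell by 1.01 ± 0.12 (adjusted p = 5.12e-08). Both genes had spheroid signals well below their monolayer signals in each line, and the other probe set of POLR2D fell by 0.98. POLR2C and POLR2J are the alpha-like pair on which the enzyme is assembled. POLR2C had 4789.6 and 4546 in monolayers and 3454 and 3318 in spheroids, and fell by 0.46 ± 0.11 (adjusted p = 0.00133), but without the wt monolayer array its adjusted p was 0.0595. A second probe set of POLR2C, almost as bright, fell by 0.87, and a dimmer one was at -0.15 and not called, so the size of its fall depends on the probe set. POLR2J had 7555 and 7191, and 5607 and 5071, and fell by 0.47 ± 0.11 (adjusted p = 0.00122). All probe sets of POLR2C and the probe set of POLR2J are of a kind shared between transcripts. Near-identical copies of POLR2J also make its value uncertain.

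The catalytic subunits and the zinc ribbon subunit of polymerase II were not called on the deposited scale. POLR2A, the largest subunit with the long carboxy-terminal repeat domain, had 508 and 561 in monolayers and 392 and 535 in spheroids, a change of -0.22 ± 0.18 (adjusted p = 0.338), and its culture groups overlapped. With averaged probe sets its value was 0.44, which takes in a pair of dim ones at 1.05 and 0.49. These had signals from 7.74 to 70.7 and from 25.8 to 67.9 and were not called. POLR2B, the second largest subunit, had 14112 and 12469, and 12337 and 11168, a change of -0.18 ± 0.12 (adjusted p = 0.232), while its second bright probe set fell by 0.37 (adjusted p = 0.019 over probe sets). POLR2I, the zinc ribbon subunit, had 5409 and 5849, and 4766 and 5220.4, a change of -0.17 ± 0.11 (adjusted p = 0.219). These values lie below zero in each line, though by less than the test could separate from the error. Under median centring and under hybridisation control scaling all 7 polymerase II genes were called lower, against 32.3% and 28.1% of all genes tested. Their median relative to all genes was -0.69 under both, as on the deposited scale. These scalings shift all log2 values of an array by a constant, so that median could not change. After quantile normalization it was -0.36.

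In polymerase III the spread among subunits was widest. POLR3B, the second largest subunit, had signals of 1378 and 1236 in monolayers and 451 and 428 in spheroids, and fell by 1.54 ± 0.15, or 2.91-fold (adjusted p = 2.38e-09). POLR3A, the largest subunit and its catalytic partner, had 607 and 582 in monolayers and 599 and 656 in spheroids, a change of 0.07 ± 0.16 (adjusted p = 0.744). The culture groups of POLR3A overlapped and those of POLR3B did not. The change of POLR3A was -0.13, -0.32 and -0.52 under quantile, median and hybridisation control scaling, with no call. A second probe set of POLR3A that passed the filter was not called either, at 0.32. POLR3K, the zinc ribbon subunit, went from 3805 and 3562 to 1639 and 1406, and fell by 1.27 ± 0.12 (adjusted p = 9.41e-10). This rests on a probe set shared between transcripts, and the other one, with signals of 51.5 to 68.1, was at 0.14.

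The TFIIE-like trimer of polymerase III, which opens the promoter, consists of POLR3C, POLR3F and either POLR3G or POLR3GL. POLR3C had 1068 and 1156 in monolayers and 578 and 566 in spheroids, and fell by 0.94 ± 0.15 (adjusted p = 6.66e-06), and its other probe set fell by 1.18. POLR3F had 1088 and 1137, and 785 and 547, and fell by 0.75 ± 0.16 (adjusted p = 0.000218). Its difference was -0.46 in wt and -1.04 in wt/GFP, and without the wt/GFP spheroid array the fall was 0.49, with the call kept.

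POLR3G and POLR3GL are paralogs that take the same place in alternative forms of the enzyme, the former known from stem and tumour cells and the latter found widely in tissues. POLR3G had signals of 2495 and 2346 in monolayers and 1398 and 1385 in spheroids, and fell by 0.79 ± 0.12, or 1.73-fold (adjusted p = 4.60e-06). A second probe set fell by 0.75 and a further, dimmer one was at -0.19 and not called. POLR3GL had 1787 and 2072 in monolayers and 3031 and 2084 in spheroids, and rose by 0.38 ± 0.14, or 1.30-fold (adjusted p = 0.0244). Its rise came from wt, with a difference of 0.76, whereas that in wt/GFP was 0.01. The change of POLR3G minus that of POLR3GL was -1.59 in wt and -0.76 in wt/GFP, a comparison within each array pair that a constant scaling factor leaves as it is. The call of POLR3GL did not hold without the wt monolayer (0.28, adjusted p = 0.318), the wt spheroid (0.11, adjusted p = 0.459) or the wt/GFP monolayer array (0.49, adjusted p = 0.0603), nor without the cell line block (adjusted p = 0.0774).

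The remaining polymerase III genes were not called. POLR3D and POLR3E form the TFIIF-like pair, the counterparts of POLR1E and POLR1G in polymerase I. POLR3D had 335 and 416 in monolayers and 428 and 560 in spheroids, a change of 0.38 ± 0.19 (adjusted p = 0.0964), with both spheroid signals above both monolayer signals. Under median centring and hybridisation control scaling it was at -0.01 and -0.21. POLR3E had 2173 and 2096, and 1919 and 1907, a change of -0.16 ± 0.12 (adjusted p = 0.299). Its probe sets disagreed, since another with signals of 981 and 954 in monolayers and 1537 and 1297 in spheroids rose by 0.54 (adjusted p = 0.00295 over probe sets). CRCP, a stalk subunit, had 704 and 909 in monolayers and 1124 and 800.25 in spheroids, a change of 0.24 ± 0.17 (adjusted p = 0.242) with opposite signs in the lines. Its second probe set had 642 and 582, and 415 and 442, and fell by 0.50 (adjusted p = 0.0244 over probe sets). The direction of POLR3E and CRCP therefore depends on the probe set.

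The subunits shared by all 3 enzymes held the largest fall of the 33 genes. POLR2F had signals of 4749.7 and 6095 in monolayers and 1915 and 1450.1 in spheroids, and fell by 1.68 ± 0.14, or 3.21-fold (adjusted p = 6.61e-11). The difference was -1.30 in wt and -2.06 in wt/GFP, and a dim second probe set, with signals from 51.0 to 89.6, was not called at 0.32. POLR2E went from 10223 and 8755 to 4067 and 3283, and fell by 1.37 ± 0.11, or 2.58-fold (adjusted p = 1.04e-10), and its other probe set fell by 1.44. POLR2L, a zinc-binding subunit of the assembly platform, went from 25803 and 22487 to 13238 and 13329, and fell by 0.86 ± 0.13 (adjusted p = 1.86e-06). POLR2K, the other small zinc-binding subunit there, went from 10255 and 8559.6 to 6672 and 5188, and fell by 0.67 ± 0.12 (adjusted p = 1.96e-05). Each of the last 3 genes fell by both of its probe sets. POLR2H was not called, with 8884 and 7577 in monolayers, 6744 and 7163 in spheroids and a change of -0.24 ± 0.12 (adjusted p = 0.0986).

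POLR1C and POLR1D are the alpha-like pair of polymerases I and III, the counterparts of POLR2C and POLR2J. POLR1C had 4089 and 4276 in monolayers and 3093 and 2945 in spheroids, and fell by 0.47 ± 0.12 (adjusted p = 0.00128), close to POLR2C, from which its change differed by 0.07 in wt and -0.08 in wt/GFP. Without the wt/GFP monolayer array its adjusted p was 0.0558. POLR1D had 11001 and 10566.5 in monolayers and 13652 and 12441 in spheroids, a change of 0.27 ± 0.12 (adjusted p = 0.0586), with both spheroid signals above both monolayer signals. It was called higher under 5 of 16 alternatives, which were quantile normalization, at 0.40 (adjusted p = 0.00131), the filter at the 60th percentile (0.0445), averaged probe sets (0.0104), no shared probe sets (0.0409) and robust fitting (0.0465). Its change was -0.12 under median centring and -0.32 under hybridisation control scaling. Another probe set of POLR1D rose by 0.77 (adjusted p = 0.00013 over probe sets), and one more was at 0.24 and not called. The change of POLR1D exceeded that of POLR2J by 0.74 in each line.

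**Figure D3:**
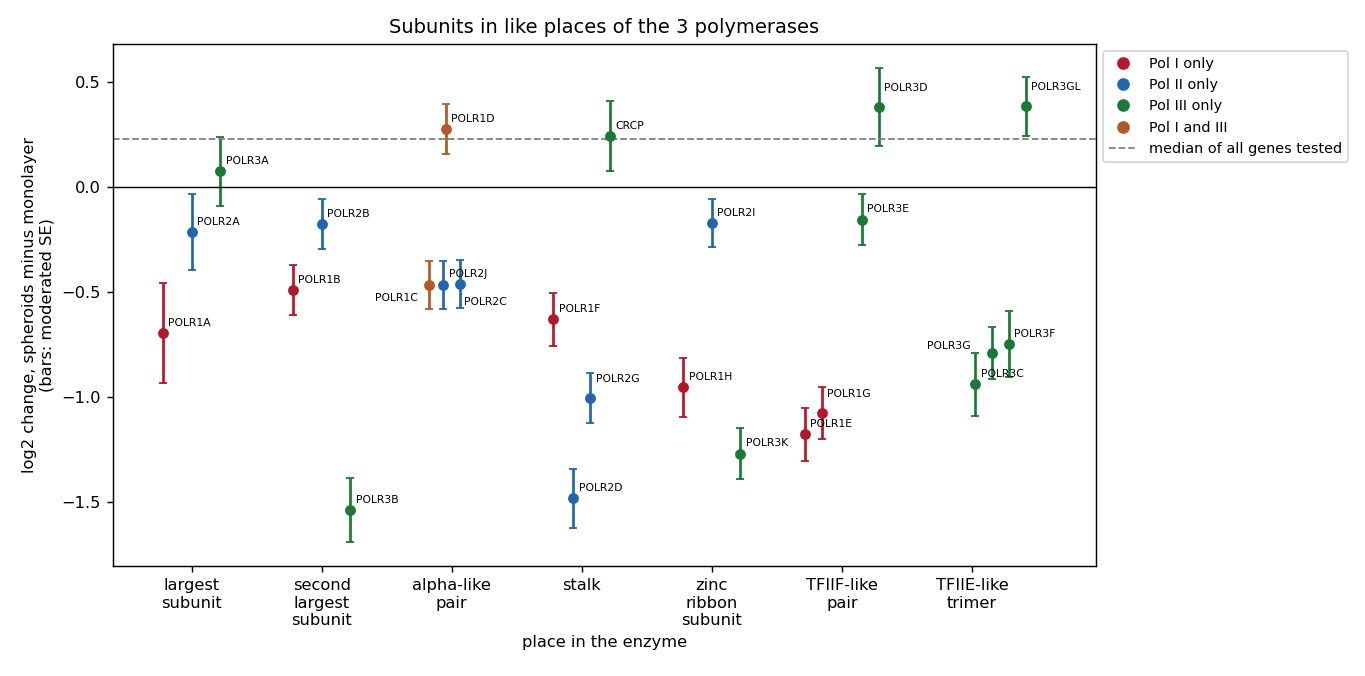
Log2 change with its SE for subunits that take like places in the 3 enzymes, with the dashed line at the median of all genes tested, 0.23. The polymerase III members reach both the lowest and the highest values, with POLR3B at -1.54 and POLR3GL at 0.38, and the polymerase II core subunits POLR2A, POLR2B and POLR2I lie between -0.22 and -0.17.

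Subunits in like places of the enzymes can be compared within each array pair. For the largest subunit, POLR1A minus POLR2A was 0.13 in wt and -1.09 in wt/GFP, so the order of these genes turned between the lines. POLR1A minus POLR3A was -0.21 and -1.33, and POLR3A minus POLR2A was 0.34 and 0.24. POLR3B minus POLR2B was -1.39 in wt and -1.34 in wt/GFP, and POLR3B minus POLR1B was -1.20 and -0.90. For the zinc ribbon subunit, POLR3K minus POLR2I was -1.03 in wt and -1.17 in wt/GFP, and POLR1H minus POLR2I was -0.40 and -1.17. In the stalk, POLR1F minus POLR2G was 0.23 and 0.52, and CRCP minus POLR2D was 2.02 and 1.43, where the value of CRCP depends on its probe set. These differences are descriptions of 2 pairs of arrays and were not tested. The general factors TFIIF and TFIIE, which work as separate proteins with polymerase II, had changes of -0.24 ± 0.13 for GTF2F1, -0.51 ± 0.13 for GTF2F2, -0.09 ± 0.13 for GTF2E1 and -0.24 ± 0.12 for GTF2E2, and of these GTF2F2 fell (adjusted p = 0.0013).

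Of the 67 probe sets that passed the filter, 33 were called lower and 3 higher, against 14.6% and 25.5% of 32768 probe sets tested alone. The 3 higher ones belonged to POLR1D, POLR3E and POLR3GL. In 23 genes at least 2 probe sets passed, and no gene had probe sets called in opposite directions. In 6 of the 23 genes all of them were called one way. These were POLR1F, POLR2D, POLR2E, POLR2K, POLR2L and POLR3C. Such counts were not made over all genes with at least 2 kept probe sets, so this agreement has no background beside it. The copies of POLR2J and the antisense pseudogene of POLR1H were dim. POLR2J4 had signals of 128 and 109 in monolayers and 184 and 216 in spheroids, a change of 0.69 ± 0.30 (adjusted p = 0.059). POLR2J2 and POLR1HASP had signals from 46.9 to 92.1 and from 29.2 to 65.7, with changes of 0.30 ± 0.48 and 0.35 ± 0.55, and none of the 3 was called.

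**Figure D4:**
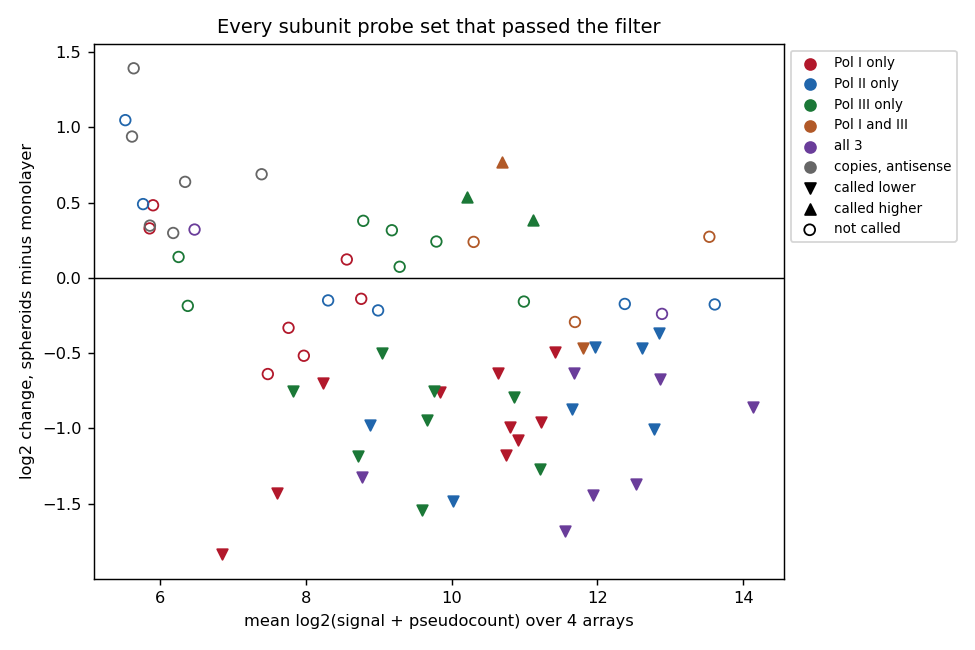
Log2 change of the 67 subunit probe sets that passed the filter, against their mean log2 level over the 4 arrays. Filled triangles pointing down are the 33 called lower, those pointing up the 3 called higher, and open circles the 31 not called; most of the dim probe sets at the left are not called and lie above zero.

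Between the lines, 0 of the 33 genes were called by limma, and 3 had an unadjusted p under 0.05; the largest size of a line difference was 0.47. Over all genes tested, 4 were called, which is 0.0279%.

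The start regions of these genes are shown because many of the genes moved together. RefSeq promoter windows, from 250 bases before to 50 bases after each start on GRCh38.p14, were available for 22 of the 30 subunit genes, with 28 windows. The core of the motif of NRF1, a factor of growth and mitochondrial genes, which reads GCGC, any base, then TGCGC, was searched on both strands and occurred in windows of 7 of the 22 genes. It was in 8 of the 28 windows, of which the 2 of POLR2F overlap and hold the same sites, against 8.99% of 16570 windows of genes tested here and 5.78% of 35116 windows in all. Those 7 genes are POLR1A, POLR2B, POLR2E, POLR2F, POLR2H, POLR3B and POLR3K. Of them 5 fell and 2 were not called, and of the 15 genes without it 10 fell, 4 were not called and 1 rose. POLR2D, at -1.48, is among the 15 genes without it. For each of the 4 lowest of the 7 genes with it, 1 window follows, with the motif in capitals. The window of POLR3GL, the gene that rose, comes last and has no match and so no capitals.
POLR2F, chr22:37953449-37953748, plus strand: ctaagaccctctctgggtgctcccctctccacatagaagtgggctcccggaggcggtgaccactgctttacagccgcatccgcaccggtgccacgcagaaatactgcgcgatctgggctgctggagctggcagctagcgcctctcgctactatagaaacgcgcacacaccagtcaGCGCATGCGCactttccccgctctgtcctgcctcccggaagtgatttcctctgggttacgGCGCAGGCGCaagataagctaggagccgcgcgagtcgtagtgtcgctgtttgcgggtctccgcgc
POLR3B, chr12:106357860-106358159, plus strand: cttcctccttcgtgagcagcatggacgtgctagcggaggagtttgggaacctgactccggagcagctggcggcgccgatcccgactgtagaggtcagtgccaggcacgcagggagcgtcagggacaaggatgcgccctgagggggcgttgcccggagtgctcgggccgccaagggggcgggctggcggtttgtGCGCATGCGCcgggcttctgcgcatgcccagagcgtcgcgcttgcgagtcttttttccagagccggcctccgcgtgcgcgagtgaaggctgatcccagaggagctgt
POLR2E, chr19:1095326-1095625, minus strand: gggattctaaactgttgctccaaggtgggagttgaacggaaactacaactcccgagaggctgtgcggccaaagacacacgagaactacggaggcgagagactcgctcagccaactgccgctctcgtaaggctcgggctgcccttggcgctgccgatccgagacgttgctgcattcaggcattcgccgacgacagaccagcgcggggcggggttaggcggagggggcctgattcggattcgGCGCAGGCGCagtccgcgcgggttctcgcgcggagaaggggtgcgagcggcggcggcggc
POLR3K, chr16:53559-53858, minus strand: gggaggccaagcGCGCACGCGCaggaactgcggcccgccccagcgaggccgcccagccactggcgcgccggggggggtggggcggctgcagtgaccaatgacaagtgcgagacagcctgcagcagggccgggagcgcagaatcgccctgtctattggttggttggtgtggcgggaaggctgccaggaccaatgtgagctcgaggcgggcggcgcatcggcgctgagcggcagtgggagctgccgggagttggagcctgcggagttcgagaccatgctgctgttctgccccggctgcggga
POLR3GL, chr1:145964440-145964739, plus strand: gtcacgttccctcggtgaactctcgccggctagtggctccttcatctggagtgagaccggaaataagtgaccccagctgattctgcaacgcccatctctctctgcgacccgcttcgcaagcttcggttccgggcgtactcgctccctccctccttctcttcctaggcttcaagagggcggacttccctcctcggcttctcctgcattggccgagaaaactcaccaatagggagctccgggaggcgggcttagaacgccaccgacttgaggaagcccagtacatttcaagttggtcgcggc

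POLR2F carried the motif at 2 places and the other 3 genes at 1 each. POLR3B has another listed start, upstream of the printed window, and its own window (chr12:106357498-106357797) holds no match. The match printed for POLR3B thus lies downstream of that start. Other short motifs were searched in the same way. The ETS core CCGGAA was in 12 of the 28 windows against 24.6% of windows of tested genes, and the E-box CACGTG, bound by MYC and its relatives, in 4 against 9.03%. The hypoxia response core ACGTG, which every E-box also contains, was in 9 against 24.4%, and CCAAT in 6 against 34.5%. TATAAA was in 0 of the 28 windows and in 6.91% of windows of tested genes. A match is a string of letters and not a measured binding site.

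The polymerases work with initiation, elongation and assembly factors, of which 109 of 114 listed genes were tested. In spheroids 51 of them fell and 8 rose, beside backgrounds of 18.5% and 30.6%, with a median change of -0.31. After median centring 82 were called lower and 2 higher, against 32.3% and 16.4% of all genes tested. Of 11 initiation and regulatory factors of polymerase I, 9 fell and 0 rose, with a median of -0.65. TAF1A, a subunit of the selectivity factor that recruits polymerase I, fell by 1.01 ± 0.13 (adjusted p = 4.44e-07). CAVIN1, known as a transcript release factor and as a caveolar coat protein, fell by 0.84 ± 0.12, and TCOF1, a nucleolar factor of ribosomal RNA synthesis, fell by 0.76 ± 0.14.

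Of 29 general initiation factors of polymerase II, 13 fell and 0 rose, with a median of -0.24. TAF5, a scaffold of the TFIID complex, fell by 1.33 ± 0.14 (adjusted p = 5.49e-09), TAF11 of the same complex fell by 0.72 ± 0.12 and ERCC3, a TFIIH translocase, fell by 0.71 ± 0.14. Elongation and carboxy-terminal domain factors were mixed, with 9 of 29 lower, 6 higher and a median of -0.09. TCEA2, which helps a stalled enzyme cleave its transcript, had signals of 262 and 269 in monolayers and 930.3 and 1154 in spheroids, and rose by 1.91 ± 0.17 (adjusted p = 5.76e-10). AFF4, a scaffold of the super elongation complex, rose by 1.07 ± 0.14, while SSRP1, a subunit of the histone chaperone FACT, fell by 1.06 ± 0.11. Under hybridisation control scaling TCEA2 remained called at 1.32, whereas AFF4 was at 0.48 and not called.

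Of 18 initiation and regulatory factors of polymerase III, 7 fell and 1 rose, with a median of -0.21. GTF3C6, the smallest subunit of the TFIIIC complex, had signals of 8383 and 8421 in monolayers and 2217 and 2186 in spheroids, and fell by 1.93 ± 0.11 (adjusted p = 1.34e-13). BRF2, an initiation factor for promoters such as that of U6, fell by 0.81 ± 0.14, and SNAPC5, of the complex that recognises small nuclear RNA promoters, fell by 0.77 ± 0.12. Of 15 assembly and import factors, 9 fell and 0 rose, with a median of -0.49. The GTPases GPN1 and GPN3, which help bring polymerase II to the nucleus, fell by 1.05 ± 0.13 and 0.91 ± 0.12, and SLC7A6OS fell by 0.99 ± 0.19. Of 7 genes of mitochondrial transcription, which uses a separate polymerase, 4 fell and 1 rose. TEFM, an elongation factor, fell by 1.03 ± 0.14, TFAM, which packages and transcribes mitochondrial DNA, fell by 1.01 ± 0.12, and MTERF3 fell by 0.61 ± 0.12. Named after its value was seen, the mitochondrial polymerase POLRMT had a change of -0.28 ± 0.13 (adjusted p = 0.0632).

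**Figure D5:**
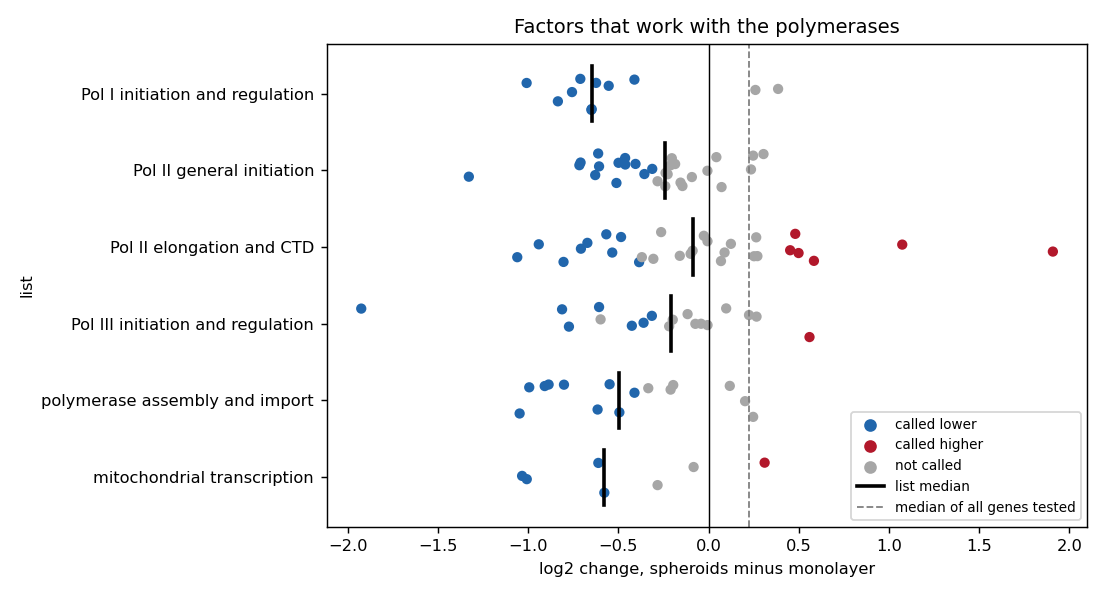
Log2 change of the 109 tested partner genes in 6 lists, each point a gene, coloured by its call, with the list median as a black bar and the median of all genes tested, 0.23, as a dashed line. List medians run from -0.65 for polymerase I factors to -0.09 for polymerase II elongation factors, and GTF3C6 at -1.93 and TCEA2 at 1.91 are the outermost points.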

How the data were processed

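Material from total RNA of monolayers and spheroids of 2 HCT116 versions was hybridised to 4 Affymetrix arrays. The authors deposited 1 value per probe set and array as an intensity on a linear scale, made with MAS5 per the submitters' processing notes with settings not given in the sources used here. Of 54675 probe sets, 62 are controls. Of the rest, 41091 had 1 symbol in the platform annotation, 1801 several and 11721 none. Of those with 1 symbol, 41037 took the current symbol of their gene identifier, whether or not it differed.

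Signals were transformed as log2(signal + 14), the pseudocount being the 25th percentile, so changes of dim genes are understated. Probe sets with a mean above the 40th percentile, 5.48, were kept, 32768 in all, and each gene took its brightest one, which gave 14349 genes. A linear model with terms for culture and line was fitted by limma 3.58.1 (R 4.3.3), moderated with a trend on brightness, with 1 residual and 25.9 prior degrees of freedom. The SE of a gene therefore rests mainly on other genes of like brightness. Pairing comes from the cell line in the labels; line differences in monolayers and spheroids had a correlation of 0.00684 across genes. Adjusted p-values are two-sided Benjamini-Hochberg values over all genes, or over all kept probe sets where stated. Arrays give no counts, so their number limits the precision.

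Members, partner lists and tests were chosen with earlier results of these data known. Every subunit gene could be named, and of each partner list the 3 called genes with the largest change. Structural counterparts were named together. Alternatives covered scaling, pseudocount, filter, probe set choice, cell line block, moderation and leaving out arrays. Simulated data had 200 of 14349 genes changed, up or down at like odds, and no difference between the lines. On them the procedure called 64.4% of the 2-fold changes and 87.6% of the 4-fold changes, with 12 false calls. In the real comparison 49.1% of genes were called, so these figures need not hold there.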

Additional observations from a re-analysis of the deposited data

Results flagged for a closer look

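For 4 of the 33 genes the difference between spheroids and monolayer had opposite signs in the 2 lines, and the difference between the lines was not tested. CRCP had 0.66 in wt and -0.18 in wt/GFP. POLR1HASP had 0.88 and -0.19, and POLR2J2 had 0.63 and -0.03. POLR3A had -0.02 and 0.17. None of these genes was called by limma in the comparison of cultures, with adjusted p from 0.242 to 0.744, and POLR1HASP and POLR2J2 are dim.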

How the results depend on the processing

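Of the 21 called genes, 9 kept their call under all 16 alternatives, and POLR2E kept it under the 15 in which it was tested. The count of lower genes was 20 and stayed between 15 and 25 under all alternatives but moderation without trend, where it was 11. Leaving out arrays gave 18 to 20 lower and 0 to 2 higher genes; with 3 arrays there is no cell line block, and a lone array is assumed to vary like the others. The count of higher genes was 1, became 2 after quantile normalization, with no shared probe sets and with robust fitting, 3 with the filter at the 60th percentile, and 0 under median centring, under hybridisation control scaling, without a filter, without trend and without the cell line block (the pairing).

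Without trend, lower genes numbered 2 for polymerase I, 2 for polymerase II and 3 for shared subunits, and lower partner factors 19, with 2 higher. Averaging probe sets left 3 lower polymerase I genes and 4 higher partner factors. Polymerase II had 7 lower genes under median centring and under hybridisation control scaling, where 32.3% and 28.1% of all genes were called lower. Partner factors were 82 lower and 2 higher after median centring, 1 higher after scaling to the controls, and 27 lower, of 81 tested, without shared probe sets.

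Relative to all genes, the median change of the 33 genes was -0.72, and -0.47 after quantile normalization, with -0.84 to -0.65 without single arrays. That of polymerase II was -0.69, and -0.36 after quantile normalization, -0.70 with no pseudocount, -0.64 with the median signal as pseudocount, -0.67 without a filter, -0.62 with the filter at the 60th percentile, -0.94 without shared probe sets, where that of polymerase I was -0.93, and -0.73 to -0.63 without single arrays. That of polymerase III was -0.68, and -0.48 after quantile normalization, -0.57 with averaged probe sets, -0.19 without shared probe sets and -0.72 to -0.54 without single arrays. That of shared subunits was -0.90, and -0.52 after quantile normalization, -0.83 with the stricter filter, -0.82 without shared probe sets and -1.09 to -0.70 without single arrays.

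Among called genes directions turned for POLR3GL under median centring (-0.0079) and hybridisation control scaling (-0.21). Without shared probe sets they turned for POLR1H (0.48) and POLR3K (0.14), and the uncalled POLR3E became called higher (0.54), since another probe set takes the gene's place. Other uncalled genes turned without a call: with averaged probe sets POLR2A (0.44), POLR3E (0.19) and CRCP (-0.13), and under median centring and hybridisation control scaling POLR1D, POLR3A, POLR3D, CRCP, POLR2J2 and POLR1HASP, of which POLR3A, POLR2J2 and POLR1HASP also under quantile normalization. Without the wt spheroid array POLR2A, CRCP and POLR2J2 turned.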
